A study of Mus musculus with 40 samples.

Results

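RGD-type integrin ligands are proteins that cells release, or hold at their surface, and that other cells grip through the short arginine-glycine-aspartate (RGD) motif. The values of 9 genes listed under this heading were read in CD11b+ cells of mouse brain: Spp1, Fn1, Tgfbi, Thbs1, Mfge8, Vtn, Vwf, Adam9 and Adam15. They were chosen by name, with earlier results of these data known. Adam9 and Adam15 held no RGD in the mouse annotation and are counted among the ligand genes below. Each table held 54513 gene rows, of which 21907 were protein-coding genes by the annotation. In total, 35 samples in 3 experiments were analysed. All mice were 10 to 12 weeks old by the study's methods, and the sorted cells came from the brain hemisphere that was naive or carried the tumor.

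In the first experiment, male C57BL/6 mice received GL261 cells, a murine glioma line carrying tdTomato and luciferase, and the cells were taken at 21 days post-implantation (DPI). Its groups were naive mice without a tumor, and tumor-bearing mice given vehicle (water), the peptide 7aaRGD, or its control peptide 7aaRAE, in which the motif reads RAE. Each of these 4 groups had 3 samples, and each sample pooled 2 animals. In the second experiment, GL261-bearing mice were sampled one by one at 28 DPI, in 4 vehicle, 4 7aaRGD, 3 anti-PD-1 and 3 7aaRGD + anti-PD-1 samples. The sample titles call these mice nude whereas the study's methods describe C57BL/6 mice, so their strain is uncertain here. In the third experiment, Athymic nude Foxn1nu mice, which lack mature T cells, carried U87-MG, a human glioblastoma line with red fluorescent protein, and received vehicle, 7aaRGD or 7aaRAE for 21 days. These 3 groups had 3 samples each, again with 2 animals pooled in a sample. Peptides were delivered into the tumor from osmotic pumps at 2 mg/ml, and anti-PD-1, an antibody against the checkpoint receptor PD-1, was injected at 10 mg/kg in 4 doses from day 8 to day 14, with IgG for the other mice of that experiment.

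RGD ligands are read by integrins, which pair an alpha with a beta chain: alpha-v pairs with beta 1, 3, 5, 6 or 8, and alpha-5 with beta 1. Binding anchors a cell to matrix and starts signals for spreading, migration and phagocytosis. In gliomas, microglia and monocyte-derived macrophages, together called glioma-associated microglia and macrophages (GAMs), gather in the tumor, and osteopontin (the product of Spp1) and lactadherin (the product of Mfge8) are known ligands of their integrins. The peptide 7aaRGD was designed to compete with both osteopontin and lactadherin for integrins. The comparisons therefore ask how the genes for such ligands stood with tumor, peptide and antibody.

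The motif itself was located first, since it is what the peptide copies. In the principal coding sequence of the mouse annotation (GENCODE on GRCm38/mm10), 7 of the 9 genes held an RGD. The genes had been listed as RGD-type ligands, so this share follows from the choice. Over all protein-coding genes with a coding sequence, 1553 of 21829 held one (7.11%). Adam9 and Adam15, membrane proteases with a disintegrin domain, held none in any of their 4 annotated coding transcripts each. The coding strand around each motif is shown 5′ to 3′ with the 3 codons of the motif in capitals, because this is the motif that the peptide carries. Holding it does not by itself make a protein an integrin ligand.
Spp1: cccaacggcCGAGGTGATagcttggct
Fn1, first motif: gtcactggcCGTGGGGACagtccagca
Fn1, second motif: catgttcccAGGGGAGACgtagactac
Tgfbi: ccacaagaaCGAGGAGATgagctggca
Thbs1: ggtgatggcCGAGGTGACgcctgcaaa
Mfge8: gacacacagCGTGGGGACatcttcacc
Vtn: caagtaacgCGGGGGGACgtgttcact
Vwf, first motif: caggatgaaAGAGGGGACtgtgtgccc
Vwf, second motif: ggctcactgCGGGGCGATtcccactct

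The motif of Spp1 lay at chr5:104439472-104439498 on the plus strand, in exon 6 of 7, and began at codon 144 of 294. The first motif of Fn1 lay at chr1:71606737-71606763 on the minus strand in exon 30 of 46, at codon 1614 of 2477, and the second at chr1:71597434-71597460 in exon 40, at codon 2181. That of Tgfbi was close to the end of the coding sequence, at codon 642 of 683 (chr13:56637146-56637172, plus strand, exon 15 of 17). The window of Thbs1 crossed from exon 17 to exon 18 of 22 at codon 927 of 1171, so its coordinates, chr2:118122680-118122899 on the plus strand, include the intron between them. Mfge8 held its motif near the start, at codon 87 of 463 in exon 3 of 10 (chr7:79145299-79145325, minus strand). The window of Vtn crossed from exon 2 to exon 3 of 8 at codon 64 of 478 (chr11:78499619-78499723, plus strand, intron included). Vwf held motifs at codon 698 of 2813 (chr6:125608239-125608265, plus strand, exon 16 of 52) and codon 2507 (chr6:125673918-125673944, exon 44). Not every annotated transcript kept it: the motif was in 6 of 7 coding transcripts of Spp1, 7 of 9 of Fn1 and 1 of 3 of Vwf, and gene-level values do not tell these transcripts apart.

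The deposited values were reads scaled for gene length and library size (RPKM) to which a constant of 2 had been added. The constant was taken off here, and levels below are RPKM. Between 9330 and 9823 protein-coding genes reached 1 RPKM in a sample. Myeloid markers were present throughout, with all 6 of the list at 1 RPKM or more in every group. The 6 microglia markers summed to 13701 to 14187 in naive samples, 1219 to 2872 in GL261 tumors and 6124 to 10049.8 in U87-MG tumors, and the 6 monocyte and macrophage markers to 386 to 426, 2378 to 7381 and 1221 to 3756. In bulk cells of this kind, fewer cells of a type and less RNA per cell cannot be told apart. Differences below are log2 fold changes on the log2(RPKM + 1) scale with their standard error (SE), tested with limma, an adjusted p (Benjamini-Hochberg over all genes tested) under 0.05 being required for a call. The fold change of a low gene is understated on that scale. The 3 tables had been normalized separately, so levels set side by side across experiments carry no test.

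The 9 genes were not alike in whether these cells expressed them. A group of 7 genes, Spp1, Fn1, Tgfbi, Thbs1, Mfge8, Adam9 and Adam15, were at 1 RPKM or more in 35 of 35 samples. Vtn, which encodes the plasma adhesion protein vitronectin, reached 1 RPKM in 2 of 35 samples, and Vwf, the platelet-capturing factor of endothelium and megakaryocytes, in 0 of 35. These data therefore do not place Vtn and Vwf among ligands expressed at an appreciable level by the sorted cells.

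**Figure D1:**
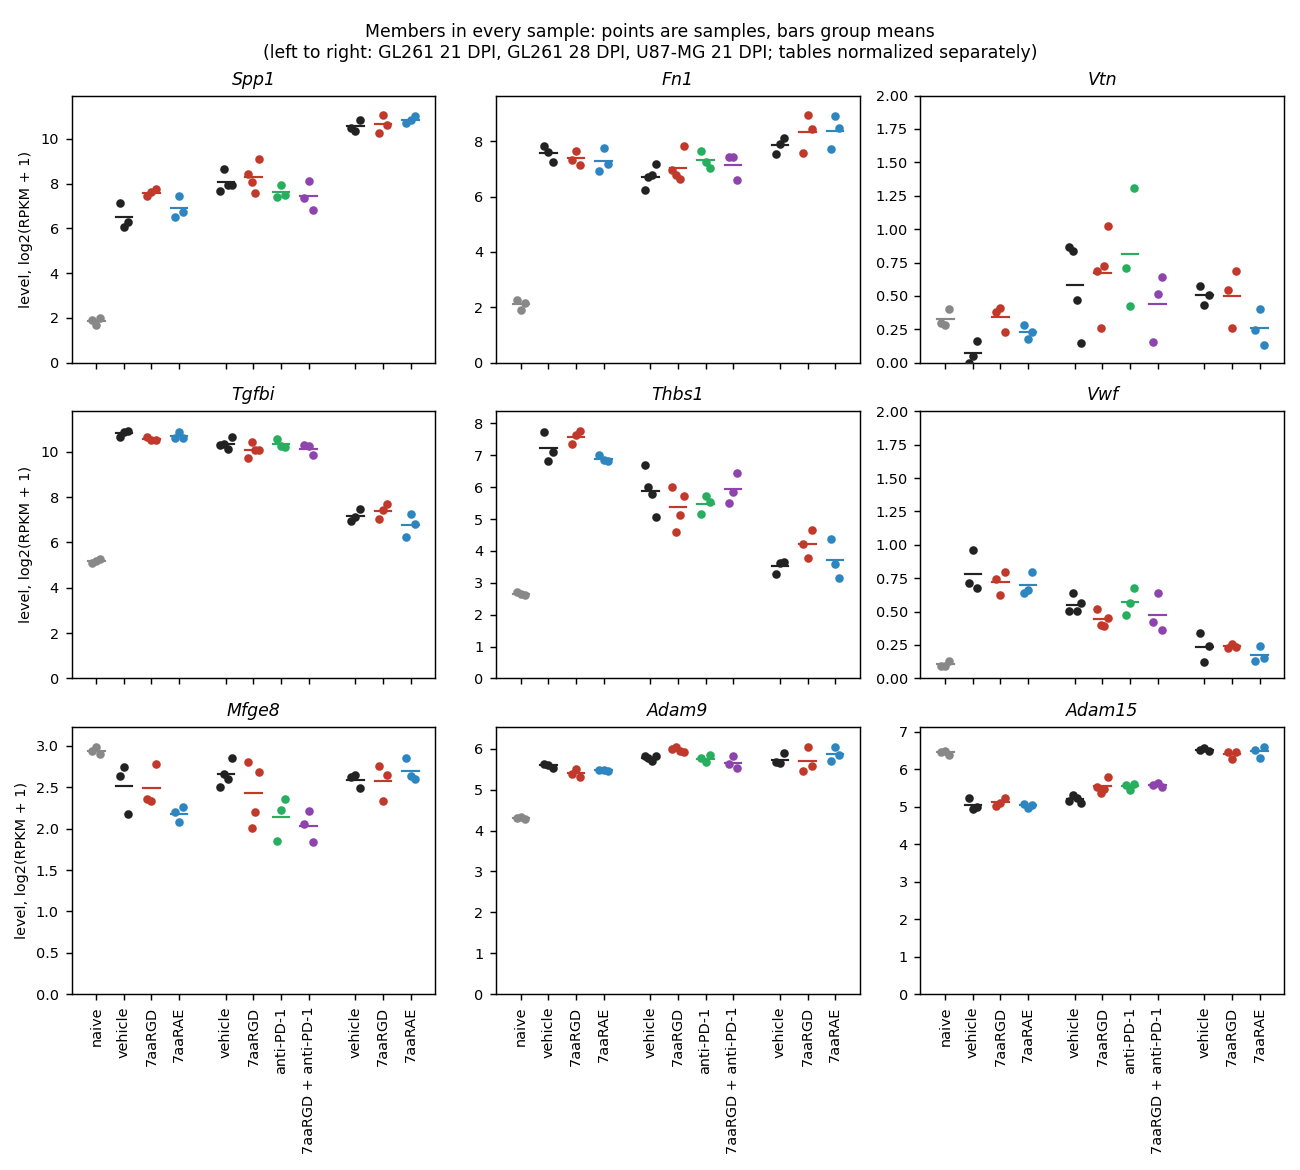
Level of each of the 9 genes in each of the 35 samples, as log2(RPKM + 1), grouped on the horizontal axis by treatment within each experiment. Points are samples and bars are group means. The naive samples lie apart from the tumor samples for Spp1, Fn1, Tgfbi and Thbs1, and Vtn and Vwf stay low in every group.

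The tumor-bearing brain differed from the naive brain in all 7 expressed genes. The matrix and matricellular ligands Tgfbi, Fn1, Spp1 and Thbs1 rose strongly in GAMs of vehicle-treated GL261 tumors at 21 DPI, Adam9 rose moderately, Adam15 fell and Mfge8 fell slightly. For each of the 7, the vehicle and naive samples did not overlap. The background was high: 82.8% of 9731 genes passed the test in this comparison and 85.4% had groups that did not overlap. The count itself therefore sets the ligands apart little, and the sizes of the changes are given below. The median log2 fold change of the 7 genes was 4.55, against -0.143 over all genes tested. As the genes were chosen with earlier results of these data known, this median does not set them apart either.

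Tgfbi, a secreted matrix protein induced by TGF-beta, was the most abundant ligand of the GL261 tumors. It stood at 33.5, 35.3 and 37.1 RPKM in the naive samples and at 1621, 1866 and 1928 in the vehicle samples. The ratio of the means was 51.1, and the log2 fold change was 5.63 (SE 0.08, limma adjusted p = 3.26e-09). In the tumor groups at 21 DPI it ranked between place 16 and place 21 of all protein-coding genes in every sample.

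Fn1 encodes fibronectin, the main matrix ligand of integrin alpha-5 beta-1. Its naive values were 3.84, 2.77 and 3.5 RPKM, and its vehicle values 227, 196 and 150.1. The mean was 56.6-fold higher with a tumor, the log2 fold change being 5.44 (SE 0.15, limma adjusted p = 3.17e-08).

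Spp1, the gene of osteopontin, which binds alpha-v integrins and CD44, was a low gene in the naive brain. There it stood at 2.79, 2.26 and 3.02 RPKM, and in the vehicle samples at 142, 65.4 and 77.2, with the first sample well above the other two. The ratio of means was 35.3 and the log2 fold change 4.62 (SE 0.25, limma adjusted p = 7.65e-07).

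Thbs1, which encodes thrombospondin-1, a matricellular protein that also binds CD36 and CD47, followed the same course. Naive samples were at 5.55, 5.24 and 5.2 RPKM, vehicle samples at 210, 111 and 138. The mean rose 28.7-fold, with a log2 fold change of 4.55 (SE 0.2, limma adjusted p = 2.33e-07). Thrombospondin is also a platelet product, and the 6 platelet and megakaryocyte markers summed to 56.6 to 64.1 RPKM in naive and 8.17 to 28.6 in vehicle samples, with 2 of the 6 at 1 RPKM or more in each group and Gp1bb at 0 in both. The pericyte and fibroblast markers, whose cells also make Fn1 and Thbs1, had 0 of 7 genes at a mean of 1 RPKM in either group, and summed to 0.212 to 0.417 RPKM in naive and 0.75 to 1.45 in vehicle samples. The part of either list in the levels of Thbs1 and Fn1 was not tested.

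The disintegrin proteases moved in opposite directions. Adam9, a sheddase of membrane proteins, was at 18.7, 19.2 and 18.6 RPKM in naive and 48.8, 47.7 and 45.6 in vehicle samples (log2 fold change 1.28, SE 0.051, limma adjusted p = 1.44e-07). Adam15, whose human counterpart carries an RGD in its disintegrin domain, was at 87.7, 88.7 and 82.8 in naive and 36.4, 29.6 and 30.7 in vehicle samples, so that the naive mean was 2.68 times the vehicle mean (log2 fold change -1.40, SE 0.082, limma adjusted p = 1.07e-06). Among the 7 genes, Adam15 had the highest naive level and the second lowest vehicle level.

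Mfge8, which encodes lactadherin, the bridge between phosphatidylserine on dying cells and integrins of phagocytes, was low everywhere. Its naive values were 6.68, 6.95 and 6.45 RPKM and its vehicle values 5.21, 5.71 and 3.54. The log2 fold change was -0.42 (SE 0.13, limma adjusted p = 0.0189). The call did not hold when samples were scaled by the median of ratios (-0.28, limma adjusted p = 0.0942), without the low-value filter (0.059), or without the first or the second naive sample (0.0511 and 0.0601), and it is given as uncertain. That scaling moved the median of all genes in this comparison from -0.143 to 0.00511, and the other 6 genes kept direction and call with it, for example Adam15 at -1.23 and Tgfbi at 5.80.

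Vtn and Vwf were under the mean of 1 RPKM needed for a test. Vtn was between 0.214 and 0.321 RPKM in naive samples, and in the vehicle samples it read -0.0073, 0.0335 and 0.12, the first being a value under the deposited constant. Vwf was at 0.0643, 0.0662 and 0.0952 in naive and 0.64, 0.946 and 0.595 in vehicle samples. The endothelial markers, another source of Vwf, summed to 11.5 to 13.5 RPKM in naive and 23.5 to 44.6 in vehicle samples, with 2 and 3 of the 6 at a mean of 1 RPKM or more and Tek near 0 in both. Their part in the level of Vwf was not tested.

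The makeup of the ligands also differed with the tumor model. The 9 values together summed to 159 ± 1.78 RPKM (SD, n = 3) in the naive samples and 2329 ± 41.9 (SD, n = 3) in GL261 vehicle samples at 21 DPI. They summed to 1859.7 ± 227 (SD, n = 4) in GL261 vehicle samples at 28 DPI and 2073 ± 325 (SD, n = 3) in U87-MG vehicle samples. The tumor sums were thus of similar size, but their leading gene was not. Tgfbi made up 68.2 to 81.2% of the sum in tumor samples of the first experiment, 53.3 to 75.7% in the second and 3.43 to 9.17% in the third. Spp1 made up 2.82 to 10.1%, 8.35 to 26.8% and 68.4 to 79% in the same order. In the third experiment, the mice, the tumor line and the table differ at once, so these cannot be told apart as the source of the contrast.

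**Figure D2:**
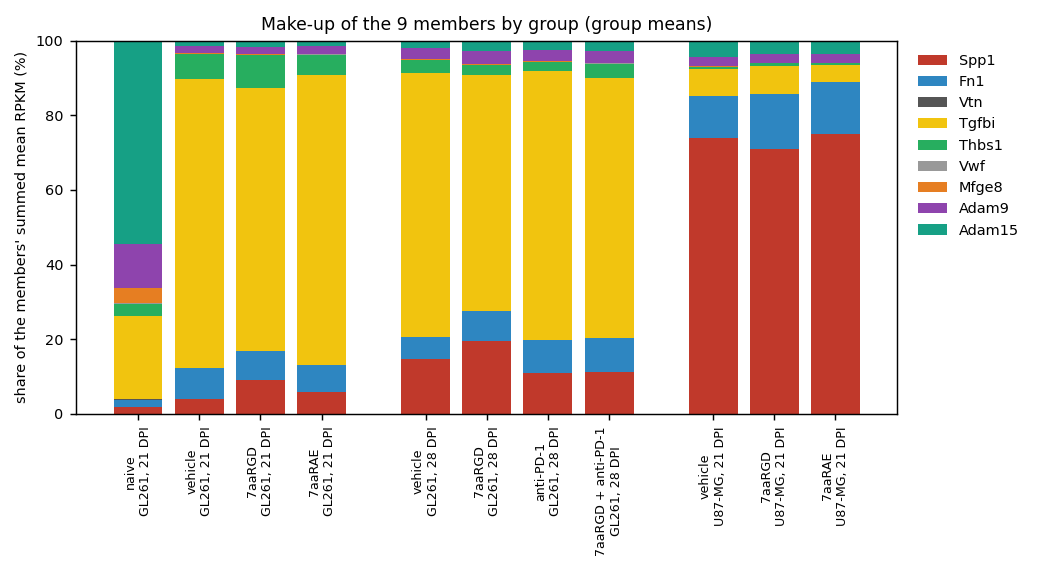
Share of each gene in the summed RPKM of the 9 genes, in percent, as stacked bars with 1 bar per group. The bars of GL261 tumors are filled mainly by Tgfbi and those of U87-MG tumors mainly by Spp1, which reached 68.4 to 79% there.

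At 21 DPI in GL261 tumors, 7aaRGD was set against vehicle. The question was whether a peptide aimed at the binding of osteopontin and lactadherin to integrins altered the ligand genes. None of the 7 tested genes passed, with 0 called at an adjusted p under 0.05, where 0.148% of all genes passed in this comparison. Before adjustment, 3 of the 7 had a limma p under 0.05, as did 1280 of 9444 genes. The same 3, Spp1, Tgfbi and Adam9, had groups that did not overlap, as did 17.6% of all genes. The median log2 fold change of the 7 was -0.03, against 0.0212 over all genes.

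Spp1 was at 172, 194 and 213 RPKM in the 7aaRGD samples, each above the highest vehicle sample (142). The log2 fold change was 1.09 with a 95% interval of 0.43 to 1.75 (limma adjusted p = 0.195). Beside it, the 7 oligodendrocyte lineage and glioma markers summed to 24.7 to 34.9 RPKM with 7aaRGD and 16.3 to 22.4 with vehicle, and the microglia markers to 1746 to 2337 and 1219 to 1739.5. Neither marker list overlapped between these groups, though no gene of either was called. The low pericyte and fibroblast markers did not overlap either (1.58 to 2.45 against 0.75 to 1.45 RPKM). The myeloid, monocyte and macrophage, neutrophil, endothelial, and platelet and megakaryocyte sums overlapped. In both groups 5 of 7 glioma markers were at a mean of 1 RPKM or more, with Aqp4 near 0. The part of these lists in the level of Spp1 was not tested.

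Tgfbi lay lower with 7aaRGD, at 1596, 1449 and 1448 RPKM, and the difference was -0.27 (95% interval -0.49 to -0.04, limma adjusted p = 0.305). Adam9 was at 40.9, 44.8 and 38.7 RPKM, all below the vehicle samples, with a difference of -0.19 (-0.34 to -0.05, limma adjusted p = 0.27). Fn1 with 7aaRGD was at 161, 201 and 140.1 RPKM, Thbs1 at 161, 198 and 216, and Mfge8 at 4.14, 4.06 and 5.86. Each of these overlapped its vehicle values, as did Adam15, at a mean of 33.7 ± 2.71 RPKM (SD, n = 3).

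The control peptide against vehicle also called 0 of 7 genes, with 0% of all genes passing (limma) and 601 at an unadjusted p below 0.05. With 7aaRAE, Spp1 was at 90.4, 172 and 105 RPKM, and its difference from vehicle was 0.39 (95% interval -0.27 to 1.05). Only Adam9, at 43.7, 44 and 43.2 RPKM, had groups that did not overlap (-0.12, limma adjusted p = 0.718), where 12.6% of all genes had. Fn1 was at 122, 214 and 145 RPKM with 7aaRAE and Tgfbi at 1554, 1881 and 1553, both overlapping the vehicle values.

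Direct comparison of 7aaRGD with 7aaRAE, which differ by the RGD motif, called 0 of 7 genes and 0% of all genes. Thbs1, at 127, 114 and 112 RPKM with 7aaRAE, was higher in each 7aaRGD sample, by 0.69 (95% interval 0.23 to 1.14, limma adjusted p = 0.775). Spp1 differed by 0.70 (0.04 to 1.36, adjusted p = 0.881), with samples that overlapped. Mfge8 was lower in the 3 7aaRAE samples, at 3.59, 3.23 and 3.8 RPKM, and differed by 0.31 (-0.04 to 0.66, limma adjusted p = 0.969). Of all genes, 11.4% had groups that did not overlap here. For Fn1 the interval ran from -0.41 to 0.58, for Tgfbi from -0.37 to 0.08, for Adam9 from -0.22 to 0.07 and for Adam15 from -0.12 to 0.27, so differences of those sizes between the peptides remain possible.

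**Figure D3:**
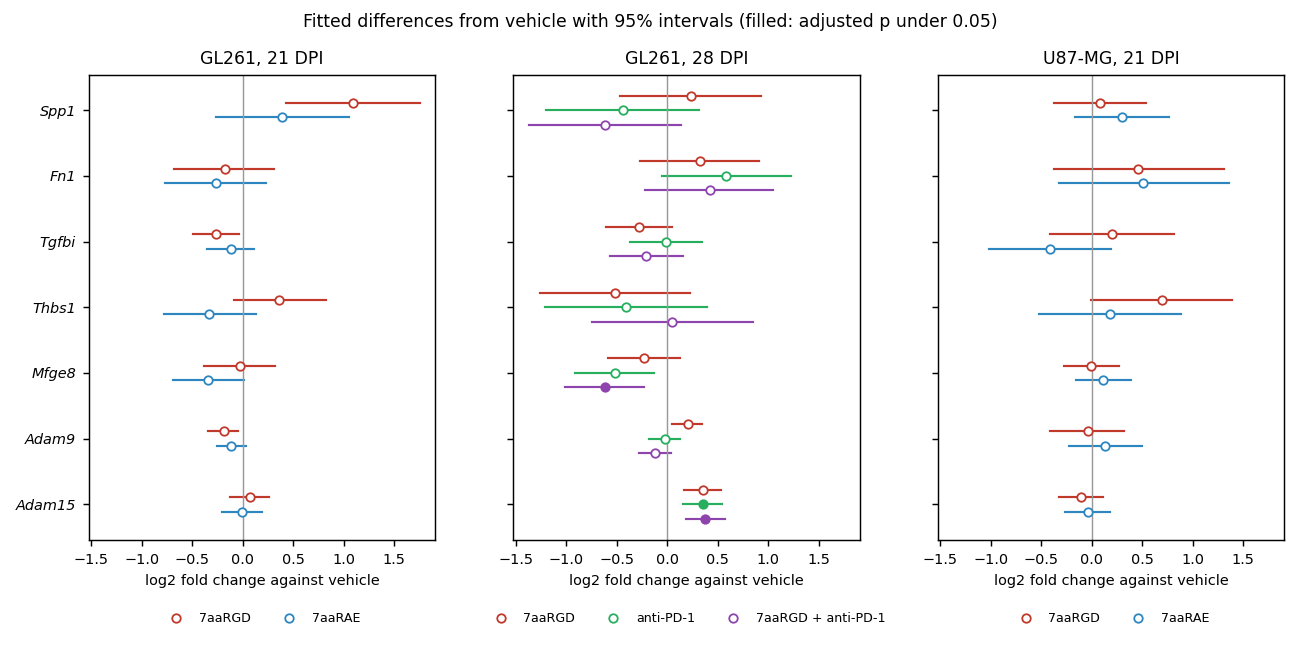
Log2 fold change of each tested gene against the vehicle group of its own experiment (horizontal axis, log2(RPKM + 1) scale), with bars for the 95% interval and 1 panel per experiment. Filled points mark an adjusted p under 0.05, which are Adam15 with anti-PD-1 (0.35) and with the combination (0.37) and Mfge8 with the combination (-0.62), all at 28 DPI.

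At 28 DPI the question was how 7aaRGD, anti-PD-1 and both together stood against vehicle. Adam15 rose with anti-PD-1 and with the combination, and Mfge8 fell with the combination. Adam9 was lower in the combination than with 7aaRGD alone. The large matrix ligands Spp1, Fn1, Tgfbi and Thbs1 were called in none of these comparisons. Of the genes called, Adam15 and Adam9 held no RGD in the mouse annotation.

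Adam15 was at 34.7, 38.6, 36.6 and 33.1 RPKM in vehicle samples and at 46.7, 42.8 and 47.6 with anti-PD-1. The combination samples were at 46.5, 48.3 and 44.7, and the 7aaRGD samples at 45.3, 40.3, 43.5 and 54.6. Every treated sample thus lay above every vehicle sample. The log2 fold change was 0.35 with anti-PD-1 (SE 0.091, limma adjusted p = 0.0155), 0.37 with the combination (SE 0.091, adjusted p = 0.00519) and 0.35 with 7aaRGD (SE 0.084, 95% interval 0.16 to 0.53, adjusted p = 0.0947), the last not passing. These 3 comparisons share the same vehicle samples. Without the third anti-PD-1 sample the anti-PD-1 difference was 0.32 and did not pass (limma adjusted p = 0.0527).

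The background differed greatly between those comparisons. With anti-PD-1, 23.1% of 9740 genes passed and 32.4% had groups that did not overlap, and 1 of 7 ligand genes passed. With the combination, 43.3% passed and 48.8% did not overlap, and 2 of 7 passed. With 7aaRGD alone, 0.647% passed and 8.02% did not overlap, and 0 of 7 passed, although Adam15 and Adam9 did not overlap. With only 7 genes tested, these counts do not set the ligand genes apart from all genes. The median log2 fold changes of the 7 were -0.02, -0.12 and 0.20 in that order.

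Mfge8 was at 4.69, 5.35, 5.07 and 6.26 RPKM in vehicle samples and at 3.15, 3.65 and 2.57 in the combination. It fell by 0.62 on the log2 scale (SE 0.18, limma adjusted p = 0.0135), a call that was lost without the third combination sample (-0.52, adjusted p = 0.0645). With anti-PD-1 it was at 2.6, 3.67 and 4.11 RPKM, also under every vehicle sample, and the difference of -0.52 missed the threshold (limma adjusted p = 0.0546). It passed with median-of-ratios scaling (0.0467), in a fit of only those groups (0.0281) and without the third anti-PD-1 sample (0.0492). With 7aaRGD the values 5.98, 3.03, 3.61 and 5.42 overlapped those of vehicle.

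Adam9 took a course of its own. Its vehicle samples were at 55.9, 54.2, 51.1 and 55.6 RPKM, and its 7aaRGD samples at 63.2, 64.9, 61.1 and 60.0, each above all vehicle samples (0.20, 95% interval 0.05 to 0.34, limma adjusted p = 0.203). Anti-PD-1 samples were at 53.4, 50.3 and 56.2, and combination samples at 48.5, 55.9 and 45.2. Between the combination and 7aaRGD alone it fell by 0.32 on the log2 scale (SE 0.073, limma adjusted p = 0.00466), in groups that did not overlap.

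**Figure D4:**
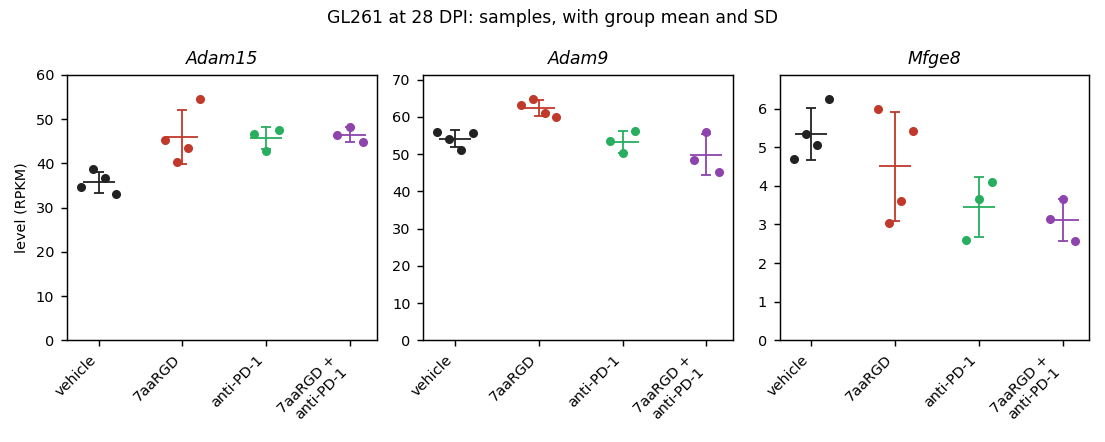
RPKM of Adam15, Adam9 and Mfge8 in GL261 tumors at 28 DPI, with 1 point per sample and lines for the group mean and SD. Vehicle samples of Adam15 lie under all treated samples, the 7aaRGD samples of Adam9 lie at 60.0 to 64.9 above all others, and Mfge8 is lowest in the combination.

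That comparison of the combination with 7aaRGD called 1 of 7 ligand genes, where 36.6% of all genes passed and 40.4% did not overlap. Spp1 was at 339.9, 269, 189 and 541 RPKM with 7aaRGD and 165, 278 and 111 with the combination. The difference was -0.85 (95% interval -1.60 to -0.09, limma adjusted p = 0.0745), and it passed without the third 7aaRGD sample (-1.08, 0.0274) or without the second combination sample (-1.19, 0.0252). In vehicle samples Spp1 was at 206, 407, 244 and 242, and with anti-PD-1 at 168, 245 and 179, so that all 4 groups overlapped.

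The combination was also set against anti-PD-1 alone. It called 0 of 7 ligand genes, none of which had groups that did not overlap, where 0.0411% of all genes passed and 21.5% did not overlap. The smallest adjusted p was that of Adam9 (0.595). A test of whether the effect of 7aaRGD changed with anti-PD-1 (the interaction) called 0 of 7 genes and 0% of all genes by limma, whereas 793 genes had an unadjusted p below 0.05. The interaction was -0.29 for Adam9 (limma adjusted p = 0.588) and -0.32 for Adam15 (limma adjusted p = 0.588).

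The remaining ligands of this experiment overlapped between the groups in every comparison made. Fn1 was at 75.4, 103, 109 and 142 RPKM in vehicle, 123, 108, 97.9 and 229 with 7aaRGD, 199, 152 and 129 with anti-PD-1, and 171, 169.6 and 95.8 with the combination. Tgfbi means were 1318 ± 204 (SD, n = 4), 1093 ± 217 (SD, n = 4), 1303 ± 180.2 (SD, n = 3) and 1139 ± 184 (SD, n = 3) in the same order. Thbs1 ran from 32.6 to 102 in vehicle, 23.4 to 63 with 7aaRGD, 34.5 to 52.1 with anti-PD-1 and 44.2 to 86.6 with the combination. In the order of group means, each of Spp1, Fn1, Tgfbi and Thbs1 had neighbours that overlapped at every step. Vtn had its highest value of the series here, 1.48 RPKM in 1 anti-PD-1 sample, and Vwf stayed between 0.284 and 0.602.

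Some cell type markers moved with the antibody. The monocyte and macrophage markers summed to 2637 to 3168 RPKM in vehicle and 2378 to 3499 with 7aaRGD, and to 4061 to 6225 with anti-PD-1 and 5552 to 7381 with the combination, with all 6 at a mean of 1 RPKM or more in each group. The microglia markers summed to 1457 to 2050.2 in vehicle, 1693 to 2872 with 7aaRGD, 1592 to 2335 with anti-PD-1 and 2127 to 2280.3 with the combination, so that only the last did not overlap vehicle. The oligodendrocyte lineage and glioma markers summed to 29.5 to 44.4, 29.7 to 35.2, 20.6 to 27.6 and 19.6 to 22.9 in the same order, and the endothelial markers to 5.25 to 11.2, 6.74 to 10.5, 11.1 to 22.8 and 15.9 to 22.4. Their part in the results for Adam15, Mfge8 and Adam9 was not tested.

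In U87-MG tumors the order of the ligands was different. Spp1 led, at 1456, 1317 and 1831 RPKM with vehicle, 1242, 2124 and 1563 with 7aaRGD and 1689, 1830.2 and 2101 with 7aaRAE. It ranked between place 16 and place 24 of all protein-coding genes. Fn1 was at 187, 238 and 276 with vehicle, 189, 488 and 348 with 7aaRGD and 208, 475 and 359 with 7aaRAE, the spread within a peptide group exceeding the gap between groups. Tgfbi was far lower than in GL261 tumors, at 123, 138 and 176 with vehicle, 129, 169 and 209 with 7aaRGD and 73.4, 153 and 112 with 7aaRAE. Adam15 was at 89.6, 94.4 and 88 with vehicle, near the naive brain of the first experiment. Adam9 averaged 52.5 ± 5.31 RPKM in vehicle, 51.6 ± 12.1 in 7aaRGD and 57.7 ± 7.11 in 7aaRAE samples (SD, n = 3), and Mfge8 means were 5.01, 5.03 and 5.51 in that order.

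No ligand gene passed the threshold with either peptide in this model. Against vehicle, 7aaRGD called 0 of 7 and 0% of all genes, with 10.8% of genes not overlapping, and 7aaRAE called 0 of 7, where 0.0103% of all genes passed and 16.5% did not overlap. Thbs1 was at 8.6, 11.4 and 11.7 RPKM with vehicle and 17.4, 12.8 and 24.2 with 7aaRGD, a difference of 0.69 (95% interval -0.01 to 1.39, limma adjusted p = 0.941). Adam15 with 7aaRGD, at 87.5, 77 and 87.7, lay under each vehicle sample by a small step (-0.11, -0.33 to 0.11, limma adjusted p = 0.941). These were the 2 genes without overlap.

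Between the peptides, 0 of 7 genes and 0% of all genes passed, and 6.46% of all genes had groups that did not overlap. Spp1 differed by -0.22 (95% interval -0.68 to 0.24), Fn1 by -0.05 (-0.89 to 0.80), Thbs1 by 0.51 (-0.19 to 1.21) and Tgfbi by 0.61 (0.01 to 1.22, limma adjusted p = 1). For Mfge8, Adam9 and Adam15 the differences were -0.12, -0.18 and -0.07. The intervals of Thbs1 and Tgfbi leave room for a change of more than 1 on the log2 scale, and that of Fn1 for one of 0.80, so the peptides are not shown to act alike. The monocyte and macrophage markers also spread widely within groups here, from 1320.4 to 3756 RPKM in the 7aaRGD samples.

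The receptors that read the motif were also compared between vehicle and naive samples, where 82.8% of all genes passed, 3368 upward and 4694 downward. With so many genes passing, the counts of calls in the following lists say little about the lists. Of 9 RGD-binding integrin subunits, 5 were tested between vehicle and naive, of which 1 rose and 4 fell, with a median log2 fold change of -1.39. Itga5, the alpha chain of the fibronectin receptor, rose by 2.15 (limma adjusted p = 9.85e-07), from 9.09 ± 0.398 to 44.2 ± 8.75 RPKM (SD, n = 3). Itgb3 changed by -2.84 (adjusted p = 6.28e-07), Itgb5 by -2.17 (3.93e-07) and Itgav by -1.39 (3.22e-07), the chains that pair as alpha-v beta-3 and alpha-v beta-5. Itgb5 was the most abundant of them, at 897 ± 6.17 RPKM in naive and 199.8 ± 29.2 in vehicle samples (SD, n = 3). In U87-MG vehicle samples Itgb5 was at 753 ± 56.4 RPKM (SD, n = 3), in a table of its own.

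Of 10 other receptors of these ligands, 9 were tested, 7 rose and 2 fell beside the same 82.8% of all genes, with a median log2 fold change of 1.76. Cd44, the osteopontin and hyaluronan receptor, rose by 4.26 (limma adjusted p = 4.36e-09), from 2.64 ± 0.213 to 68.6 ± 4.45 RPKM (SD, n = 3). Sdc4, a syndecan that binds fibronectin, rose by 3.56, Itga4 by 2.93 and Sdc1 by 2.40 (limma adjusted p = 1.95e-06, 1.00e-07 and 3.12e-07). Sdc1 passed the filter only through the tumor samples, being at a mean of 0.0431 RPKM in naive and 4.54 in vehicle samples, and its fold change ran from 0.92 to 5.07 over the alternatives. The microglia and macrophage marker sums moved with these receptors as with the ligands, and their part was not tested.

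**Figure D5:**
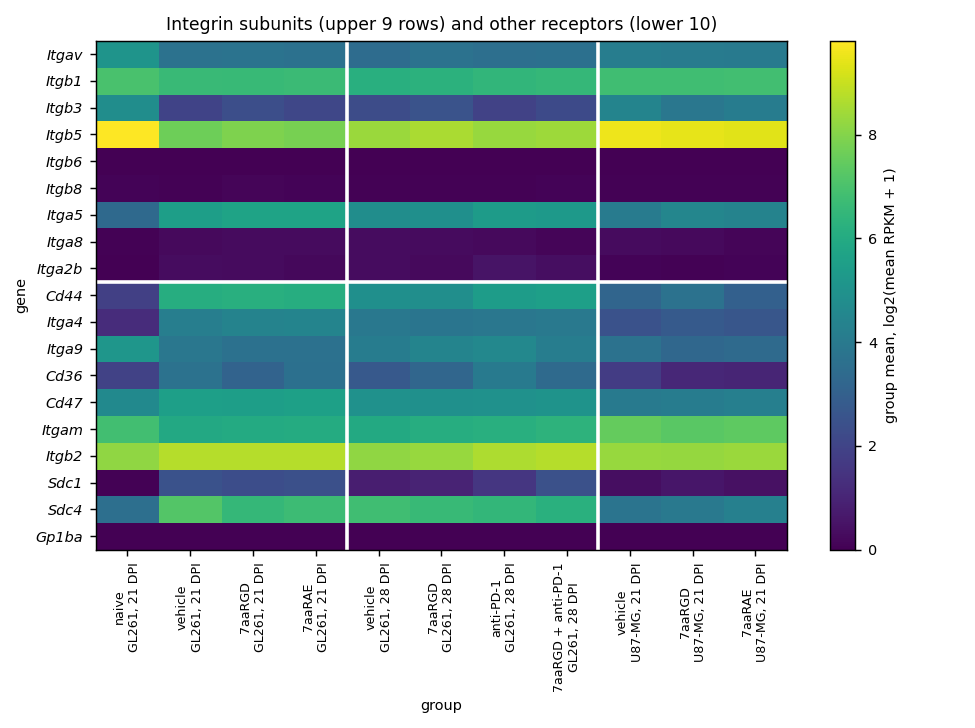
Group means of the 9 RGD-binding integrin subunits (upper rows) and the 10 other receptors (lower rows) as log2(mean RPKM + 1), with 1 column per group and white lines between the experiments. Itgb5 is brightest in the naive column and in U87-MG tumors, and Cd44 is brighter in GL261 tumors (68.6 RPKM with vehicle at 21 DPI) than in naive samples (2.64).

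Other genes listed as ligands of the RGD and alpha-v kind were mostly silent. They were listed by name and not looked at one by one for an RGD. Their place in the list therefore does not show that they bind through it. Of 27 listed, 7 were tested between vehicle and naive: 1 rose, 5 fell and 1 did not pass, with a median of -0.93, and 82.8% of all genes passed. Emilin1, an elastic fibre protein, rose by 3.02 (limma adjusted p = 1.78e-08), from 1.19 ± 0.0778 to 16.8 ± 1.5 RPKM (SD, n = 3). Cyr61 (also named Ccn1) changed by -2.06 (limma adjusted p = 0.000293), Npnt by -1.35 (1.29e-05) and Postn by -0.97 (0.000961). Over the alternatives, Cyr61 ran from -2.87 to -1.01 and Postn from -1.71 to -0.35. Of this list, 7 genes were at a mean of 1 RPKM or more in naive and 5 in vehicle samples. Some of those tested therefore passed the filter only through the naive samples, which favours a fall. The count of falls and the median thus say little about this list. Of 11 proteases and cross-linkers that act on these ligands, 6 were tested, 4 rose and 1 fell, with a median of 2.03, beside that same share. The 1 that fell, Mmp9, lost its call in some alternatives (highest limma adjusted p = 0.0643). Mmp14, a membrane collagenase, rose by 3.78 (limma adjusted p = 1.16e-08) and Tgm2, a transglutaminase that cross-links fibronectin, by 3.74 (2.06e-07), from 44 ± 2.59 to 609 ± 139 RPKM (SD, n = 3).

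No gene of these 4 lists was called for 7aaRGD against vehicle in any of the 3 experiments. Of all genes, 0.148%, 0.647% and 0% passed there (GL261 at 21 DPI, GL261 at 28 DPI and U87-MG), so this absence says little about the lists. With anti-PD-1 at 28 DPI the calls were Itgb1 of 5 tested subunits (0.29, limma adjusted p = 0.0078), Cd44 and Itgb2 of 9 other receptors (0.53 and 0.45), Adam17 of 5 other ligands (0.60), and Tgm2 and Plau of 6 enzymes (1.71 and 0.82). For Tgm2 the vehicle mean was 111 ± 24.8 RPKM (SD, n = 4) and the anti-PD-1 mean 359 ± 33.8 (SD, n = 3). The call of Plau was lost in some alternatives (highest limma adjusted p = 0.147). The combination against vehicle called 2 of 5 subunits (Itgb1 0.36, Itga5 0.50), 5 of 9 other receptors (4 up, 1 down), 3 of 5 other ligands (1 up, 2 down) and 2 of 6 enzymes (Tgm2 1.67, Plau 0.92). The calls of Itga5 and of Emilin1 (-0.48, limma adjusted p = 0.0335) were also lost in some alternatives (highest 0.147 and 0.154), and that of Plau once (0.0744). Sdc1 rose by 1.55 and Sdc4 changed by -0.55, Adam17 rose by 0.62, and Postn changed by -0.75 (limma adjusted p = 0.00153, 0.00166, 0.00015 and 0.00554). Sdc1 averaged 0.755 RPKM with vehicle and 4.42 with the combination, and Postn 1.27 and 0.339, so each was under 1 RPKM in 1 of the groups and passed the filter through others. Over the alternatives their fold changes ran from 0.68 to 2.39 and from -1.64 to -0.23. These counts stand beside the same 23.1% and 43.3% of all genes.

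Within tumors, the ligand genes were compared for how alike they varied. Likeness was taken as Pearson's r across the tumor samples of a table (9, 14 and 9 samples), averaged over the 3 tables, among 8913 genes. Such values describe samples that share treatment groups and cell makeup, and carry no test. Of 21 pairs among the 7 genes, 3 had an r above 0 in every table (Spp1 with Fn1, Fn1 with Tgfbi, and Thbs1 with Mfge8) and 3 an r under 0 in every table, among them Tgfbi with Adam15 (mean r -0.51). The highest mean r was 0.45, for Fn1 with Adam9. None of the 7 genes was among the 3 most alike genes of another, which says little with 8913 genes compared. The share over all pairs of genes was not computed, so these counts do not show whether the 7 vary together or apart.

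The genes most alike were others. For Spp1 they were Heatr3 (mean r 0.81), Slc38a1 (0.79) and Fasn (0.78). For Fn1 they were 1810013L24Rik (0.78), Aggf1 (0.76) and Iqgap1 (0.75), and for Tgfbi Fkbp1b (0.75), Mdfic (0.70) and Dnase1l1 (0.69). The nearest to Thbs1 were less close, with Rhoc and Jup at 0.66 and Cnnm2 at 0.63. Mfge8 was most like Cables1 (0.82), Tmem50a (0.80) and Phgdh (0.79), Adam9 most like Twf1 (0.85), Mfsd1 (0.83) and Dram2 (0.81), and Adam15 most like Wdfy4 (0.86), Fez2 (0.84) and Slc7a7 (0.82).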

How the data were processed

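CD11b+ cells were sorted, and polyA RNA was sequenced from stranded libraries. The authors trimmed reads, aligned them with STAR to mm10, counted genes with HTSeq 0.11.1 and normalized them to RPKM within each experiment. The deposited RPKM values held an added constant of 2, recognised from the values and subtracted here. Between 3.13 and 8.78% of all rows in a sample lay under the constant. Among rows that left the constant in any sample of their table, the share was 6.58 to 18%. The values were thus altered after normalization, and replicate differences spanned 7 of 8, 9 of 10 and 6 of 6 dimensions in the 3 tables. P-values may therefore be too small. The depth is unknown, so no count model was used. Names of 53904 of 54513 rows (98.9%) matched the annotation.

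Protein-coding genes averaging 1 RPKM or more across a fit's samples were tested on log2(RPKM + 1) with values under the constant set to 0, using limma 3.58.1 (lmFit, eBayes with trend) in R 4.3.3, with Benjamini-Hochberg adjustment over all genes tested and a threshold of 0.05. Vehicle and naive samples were fitted alone, and the tumor groups of an experiment together. The script was tested on simulated data. Replicate numbers did not pair the samples: over same-numbered pairs, correlations of deviations exceeded 0.1 in 1 of 18 pairs at 21 DPI and 3 of 19 at 28 DPI. They ran from -0.772 to 0.118 at 21 DPI and from -0.499 to 0.366 at 28 DPI. The source of the strongly negative values was not tested. Groups came from the sample titles. Replicates of U87-MG tumors share a column heading and carry no number. Samples without a column of their own (naive nude mice, and the fourth anti-PD-1 and combination samples) were not analysed here. The genes named were the 9 ligands, the 3 genes most alike each of the 7 expressed, and up to 4 called genes of each list and comparison. The ligands and lists were chosen with earlier results of these data known. Alternatives changed the pseudocount, filter, scaling, threshold, samples fitted, replicate block and each left-out sample; 1 (values under the constant kept) was added after seeing the data. Coding sequences came from the GENCODE annotation of GRCm38.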

Additional observations from a re-analysis of the deposited data

Results flagged for a closer look

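The difference of Adam9 between 7aaRGD and vehicle had opposite signs at the 2 time points of GL261 tumors: -0.19 on the log2(RPKM + 1) scale at 21 DPI, where every 7aaRGD sample lay under every vehicle sample, and 0.20 at 28 DPI, where every one lay above. Adam15 likewise differed by 0.35 in GL261 tumors at 28 DPI and by -0.11 in U87-MG tumors, again with no overlap in either. The experiments were normalized separately, neither single difference passed the threshold, and the difference between experiments was not tested. No sample stood apart in the 18 sets of 4 samples looked at, where chance would mark about 1 in 20.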

How the results depend on the processing

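The number of the 7 tested genes past the threshold was the same or within 1.5 times its value in 233 of 247 alternatives. Comparisons with 0 calls that stayed at 0 are among the 233, so this share says little about the calls made. For 28 DPI, requiring a log2 fold change of at least 1 gave 0 genes in each of anti-PD-1 against vehicle (1 otherwise), the combination against vehicle (2) and the combination against 7aaRGD (1). An adjusted p under 0.1 gave 1 gene for 7aaRGD against vehicle (Adam15), 2 for anti-PD-1 against vehicle and 2 for the combination against 7aaRGD. Median-of-ratios scaling and a fit of only the groups compared gave 2 each for anti-PD-1 against vehicle. A mean of at least 5 RPKM removed Mfge8 and left 1 for the combination against vehicle. Leaving out 1 sample at a time gave 1 to 3 genes for the combination against vehicle and 1 to 2 for the combination against 7aaRGD (2 without 7aaRGD sample 2 or 3 or combination sample 2). The replicate number as a block gave 2 for anti-PD-1 against vehicle and 3 for the combination against vehicle, both with Fn1 added. The block changed no other count, and the numbers do not pair the samples. For U87-MG, no paired analysis was possible because the columns carry no number. Of 536 alternatives for single genes, 516 gave the same call and 0 reversed. Genes that were not called and stayed so are among the 516. The cause was not tested.

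Counts over all genes moved more. They ran from 2750 to 9919 for vehicle against naive (8062), 0 to 125 for 7aaRGD against vehicle at 21 DPI (14), and 0 to 144 at 28 DPI (63). At 28 DPI they ran from 132 to 3055 for anti-PD-1 (2246) and 379 to 4989 for the combination against vehicle (4215), 0 to 183 for the combination against anti-PD-1 (4), and 319 to 4404 for it against 7aaRGD (3560). For 7aaRAE against vehicle in U87-MG they ran from 0 to 32 (1). Median-of-ratios scaling turned 1707 higher and 2508 lower genes into 2190 and 2105 for the combination against vehicle, 1269 and 2291 into 1700 and 1622 for it against 7aaRGD, and 3368 and 4694 into 3978 and 3914 for vehicle against naive. Where no gene passed, unadjusted p under 0.05 was seen for 601 genes (7aaRAE against vehicle) and 521 (7aaRGD against 7aaRAE) at 21 DPI, and 365 and 327 (7aaRGD against vehicle and 7aaRAE) in U87-MG. Depth is unknown, and 3 or 4 samples a group limit what could be seen.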
